A study of Homo sapiens with 18 samples.

Results

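The genes described here encode secreted coagulation, fibrinolysis, serpin and complement proteins of hepatocytes. They were taken by symbol from a fixed list of 42, all of which are among the 36684 gene symbols of the count table. Of these, 21 act in coagulation and fibrinolysis, 17 in complement, and 4 are broad inhibitors or carriers (SERPINA1, SERPING1, A2M and AHSG). A total of 39 passed the filter on low counts and were tested, among 14557 genes of the whole table that did so. F9, KLKB1 and C9 did not pass and were not tested.

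RNA-seq was performed on Hep3B, a line of human liver cancer cells, in 6 groups of 3 libraries. The groups were the control (Con), the free fatty acid (FFA)-induced steatosis model (Model), that model with fucoxanthin (FUCO, a marine carotenoid) at 0.5, 1 or 2 μM, and cells with Resmetirom (RES, an agonist of the thyroid hormone receptor β). The titles do not say whether the RES libraries also received FFA, and the sources used here do not state the RES dose or the FFA amount and times for these libraries. The methods call the 3 samples of a condition biological replicates, so p-values measure the spread between such samples of 1 cell line. Total counts ranged from 16916688 to 23083498 per library. Con replicate 1 stood apart from the other Con libraries (chi-square per degree of freedom over genes 16.2 and 13.7, against 2.34 between replicates 2 and 3), and so did FUCO-2 replicate 1 (20.05 and 19.3, against 5.91). FUCO-1 replicate 3 stood apart at 10.3 and 11.4, against 4.64, and the FUCO-0.5 libraries differed from each other at 6.03 to 18.5. Without Con replicate 1, the number of members that differed between Model and Con was 16 instead of 15, and without FUCO-2 replicate 1 the number that differed between 2 μM FUCO and Model was 20 instead of 21. Without FUCO-1 replicate 3 the number that differed between 1 μM and Model was 4 as before, and that between 2 and 1 μM was 3 instead of 10.

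Hepatocytes release most of the clotting factors and complement components of blood plasma. Coagulation is a chain of proteases that ends in thrombin, which cuts fibrinogen into fibrin, while plasmin dissolves fibrin and serpins such as antithrombin and heparin cofactor II hold the proteases back. Complement is started by the classical, lectin or alternative route, all of which cleave C3, after which C5 to C9 assemble into a pore in the target membrane. Fibrinogen, C3 and SERPINA1 are known as acute phase proteins, whose genes respond to interleukin 6 and to C/EBP and STAT3 factors in liver cells.

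The 3 fibrinogen genes lie side by side on chromosome 4, FGB on the plus strand at chr4:154562980-154572807, FGA on the minus strand at chr4:154583126-154590742 and FGG on the minus strand at chr4:154604136-154612656 (GRCh38.p14). Their upstream sequences are shown because the fold changes of the 3 genes had the same sign within each comparison with the Model, and that of C6 because it had the largest fall of any tested member with RES. These 4 were chosen after their values were seen. The RefSeq table of GRCh38.p14 held a promoter for 33 of the 42 members. Each window is the 250 bases before the gene's start, read 5′ to 3′ on the gene's own strand, and capitals mark the motif matches described after them.
FGA: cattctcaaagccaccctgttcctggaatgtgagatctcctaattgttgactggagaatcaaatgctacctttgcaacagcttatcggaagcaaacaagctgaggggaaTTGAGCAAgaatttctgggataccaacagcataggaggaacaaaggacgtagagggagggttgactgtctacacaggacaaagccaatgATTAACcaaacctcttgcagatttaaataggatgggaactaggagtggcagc
FGB: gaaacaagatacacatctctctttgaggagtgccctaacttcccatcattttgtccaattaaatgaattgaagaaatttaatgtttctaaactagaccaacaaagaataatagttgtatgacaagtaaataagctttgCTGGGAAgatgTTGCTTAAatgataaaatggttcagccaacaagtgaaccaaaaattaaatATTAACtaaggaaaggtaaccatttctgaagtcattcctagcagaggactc
FGG: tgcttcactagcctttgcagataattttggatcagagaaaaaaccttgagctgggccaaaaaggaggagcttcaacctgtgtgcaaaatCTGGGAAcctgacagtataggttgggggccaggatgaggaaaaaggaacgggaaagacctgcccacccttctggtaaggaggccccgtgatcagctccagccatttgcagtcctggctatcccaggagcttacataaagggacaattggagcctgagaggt
C6: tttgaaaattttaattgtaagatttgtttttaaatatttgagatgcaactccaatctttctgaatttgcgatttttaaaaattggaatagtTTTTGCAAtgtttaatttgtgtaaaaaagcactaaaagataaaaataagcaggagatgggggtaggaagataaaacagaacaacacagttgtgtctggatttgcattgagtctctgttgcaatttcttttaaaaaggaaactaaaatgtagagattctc

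The FGA window is chr4:154590743-154590992, that of FGB chr4:154562730-154562979, that of FGG chr4:154612657-154612906 and that of C6 chr5:41261470-41261719. Both strands were searched for 5 motifs, the HNF1 half-site GTTAAT, the HNF4 motif CAAAGTCCA, the C/EBP motif TTGCNNAA, the interleukin 6 response element CTGGGAA and the nuclear receptor half-site AGGTCA. FGA held a C/EBP match that began 141 bases before its start and an HNF1 half-site at 52 bases. FGB held the interleukin 6 element at 112 bases, a C/EBP match at 101 bases and an HNF1 half-site at 51 bases. FGG held 1 match, the interleukin 6 element at 161 bases, and C6 held 1, a C/EBP match at 159 bases. No match overlapped another in these windows. Among all 27305 promoters of the table, 6.22% held the HNF1 half-site and 9.13% the C/EBP motif, against 6 (18.2%) and 8 (24.2%) of the 33 members. The interleukin 6 element was in 9.3% of all promoters and in 6 members, the nuclear receptor half-site in 12.1% and in 6 members, and the HNF4 motif in 0.293% and in 2 members, PROZ and AHSG. These matches are letters in a window and were not tested as binding sites.

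The level of a gene is given in CPM, its count relative to the library size with TMM factors (trimmed mean of M-values) applied. Per kilobase of the canonical transcript, AHSG (fetuin-A, a carrier of calcium phosphate) was the highest member in Con with 6247 ± 213 CPM per kilobase (SD, n = 3). It was followed by SERPINA1 (α1-antitrypsin), A2M (α2-macroglobulin, a broad protease trap), C3 (350.1 ± 8.77) and SERPIND1 (heparin cofactor II). In the Model, C3 stood at 653 ± 27.5 CPM per kilobase and had passed A2M at 289. With RES the order was AHSG at 1549 ± 222, SERPINA1, FGG at 341 ± 43.0, FGA at 306 ± 44.3 and C3 at 237 ± 27.5, and the ranges of FGG and FGA overlapped within 1 SD. At the other end, F9 had 0 to 5 counts per library, C9 0 to 4 and KLKB1 1 to 11. F9 and C9 had 0 counts in all 3 RES libraries, which allows up to 3 counts in each. SERPINC1 (antithrombin), F13B, HRG and MBL2 were tested but averaged under 1 CPM over the 18 libraries. Antithrombin is the main inhibitor of thrombin in plasma, yet SERPINC1 was at 1.08 ± 0.305 CPM in Con and SERPIND1 at 452 ± 25.8 CPM.

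Comparing Model with Con asks what FFA did to these genes. C3 rose, A2M and AHSG fell, and the fibrinogen genes fell slightly. Of the 39 tested members, 5 were higher in the Model and 10 lower at an adjusted p under 0.05, against 8.43% and 9.12% of all tested genes. C3 was at 1812, 1799 and 1884 CPM in Con and at 3534, 3255 and 3454 CPM in the Model. Every Model library was well above every Con library, and the log2 fold change was 0.90 (adjusted p = 7.97e-08, SE 0.09). Its product is the protein on which all complement routes meet. The downstream pore component C6 rose by 0.52 on the log2 scale (adjusted p = 0.00687, SE 0.13), with 13.4 to 18.3 CPM in Con and 20.8 to 26.1 CPM in the Model. C1S, a protease of the C1 complex, was also higher (log2 fold change 0.49), as were PROS1 (protein S, the cofactor of activated protein C, 0.35) and F5 (factor V, 0.21).

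Among the members that passed, AHSG had the largest fall, from 9897, 10131 and 9471 CPM in Con to 5688, 5987 and 5532 CPM in the Model (log2 fold change −0.78, adjusted p = 3.35e-06, SE 0.10). A2M fell by 0.65 on the log2 scale (adjusted p = 1.63e-06, SE 0.08), from 1878 to 2235 CPM down to 1301 to 1382 CPM. In the complement set, C8G, the small subunit of C8, fell by 0.56 (adjusted p = 0.00245, SE 0.12) and MASP1, a lectin pathway protease, by 0.51 (adjusted p = 0.00055, SE 0.10). C4B was lower by 0.50 with an adjusted p of 0.0496, and its reads cannot be separated with certainty from those of its near-identical copy C4A. FGA was at 232, 310 and 291 CPM in Con and 206, 209 and 210 CPM in the Model (log2 fold change −0.41, adjusted p = 0.0107, SE 0.11). FGB had a log2 fold change of −0.34 (adjusted p = 0.0317, SE 0.11) and FGG of −0.38 (adjusted p = 0.0338, SE 0.12). The Model libraries were below all Con libraries for the 3 genes, but Con replicate 1 was the nearest to them each time. The remaining falls were those of F7 (factor VII, −0.33) and SERPIND1 (−0.36). The summed level of 9 hepatocyte markers was 60920 to 69340 CPM in Con and 49920 to 50450 CPM in the Model, and its part in these falls was not tested.

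Of the 15 calls, 8 held under every alternative, those on C3, A2M, AHSG, C8G, MASP1, C1S, F7 and PROS1. The call on FGA was lost without Con replicate 2 (adjusted p = 0.08) and without Con replicate 3. Those on FGB and FGG were lost without Con replicate 2, without Con replicate 3 and without any single Model library, with adjusted p up to 0.131 and 0.169. The call on C6 was lost without Con replicate 2 and without Model replicate 3 (adjusted p up to 0.065), and that on SERPIND1 without Con replicate 2 and without Model replicate 2 (up to 0.0818). That on F5 was lost in 5 of the 6 fits that left out a library, all but that without Model replicate 2 (up to 0.169), and with no filter on low counts. That on C4B did not hold when Con replicate 1 (adjusted p = 0.368) or any single Model library was left out, with RLE or upper quartile factors, in the fit of 2 groups and with at least 10 counts in every library. The median of the tested coagulation genes was −0.31 on the log2 scale and −0.10 without Con replicate 1, and that of the complement genes was −0.11, while the median over all tested genes was 0.00.

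**Figure D1:**
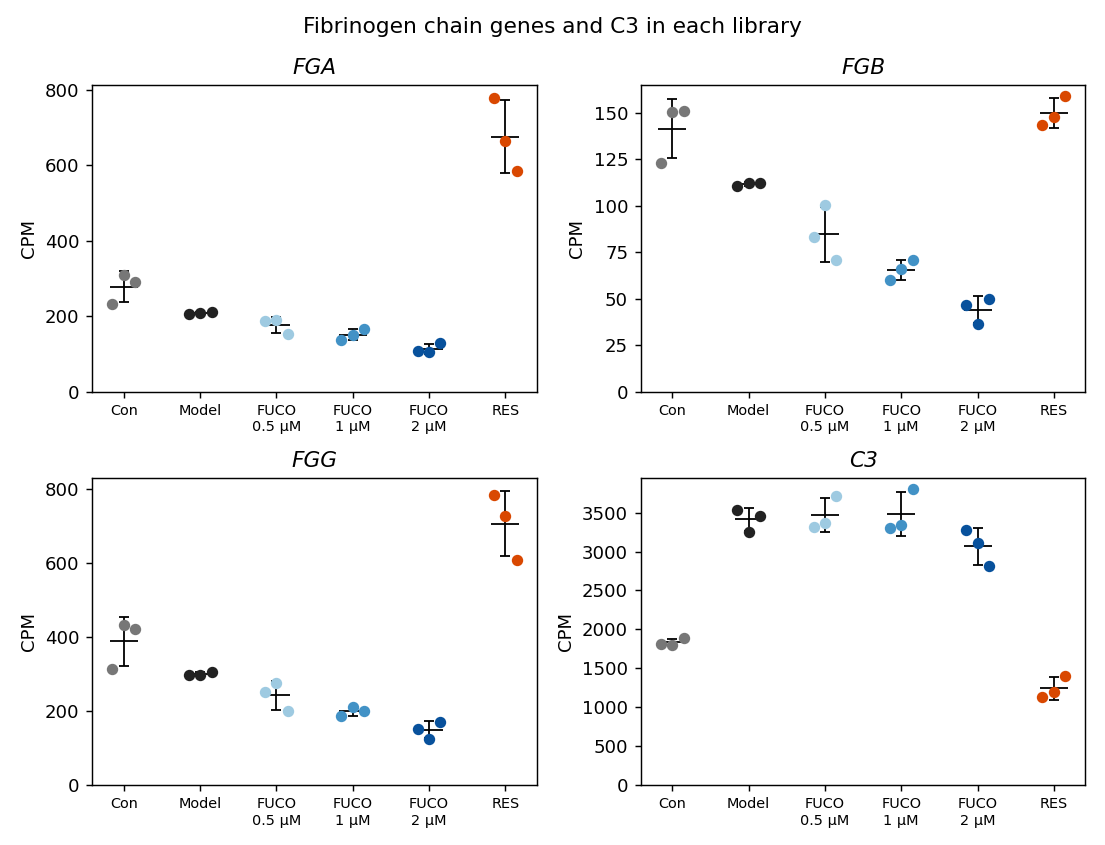
CPM (counts relative to library size, with TMM factors) of FGA, FGB, FGG and C3 in each of the 18 libraries, by group. Points are libraries, and the bar with whiskers is the mean ± SD of 3. The fibrinogen genes are lowest at 2 μM FUCO, where FGB lies between 36.1 and 49.5 CPM, and FGA and FGG are highest with RES, while C3 is highest in the Model and the FUCO groups and lowest with RES, at 1126 to 1401 CPM.

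The comparisons of FUCO with the Model ask whether the compound changed the FFA-treated cells. All of them, and that of RES, share the 3 Model libraries. With FUCO the fibrinogen genes and KNG1 were the first members to fall. FGB, the β chain, was at 110, 112 and 112 CPM in the Model. It was at 83.1, 100.02 and 70.6 CPM at 0.5 μM, at 59.7, 65.9 and 70.6 CPM at 1 μM, and at 46.6, 36.1 and 49.5 CPM at 2 μM. All libraries with FUCO were below the Model, and the 1 and 2 μM groups did not overlap.

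At 0.5 μM no member passed the test, against 0.289% of all genes called higher and 1.16% called lower. There were 7 members at an unadjusted p under 0.05 in edgeR, beside 1641 of all 14557 tested genes. DESeq2 called 1 member, FGB, among 300 genes called in all. The log2 fold changes at this dose were −0.40 for FGB (adjusted p = 0.0737, SE 0.11), −0.31 for FGG (adjusted p = 0.301), −0.24 for FGA (adjusted p = 0.404) and 0.02 for C3 (adjusted p = 0.965).

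At 1 μM 4 members fell, all in the coagulation set, and 0 rose, where 2.32% of all genes were called lower and 0.893% higher. The log2 fold change was −0.77 for FGB (adjusted p = 8.58e-05, SE 0.11), −0.59 for FGG (adjusted p = 0.00519, SE 0.12), −0.51 for KNG1 (adjusted p = 0.00307, SE 0.10) and −0.47 for FGA (adjusted p = 0.0159, SE 0.11). KNG1 encodes kininogen, the carrier of bradykinin and a cofactor of the contact phase. It was at 71.7, 70.2 and 78.9 CPM in the Model and at 48.0, 53.4 and 53.4 CPM at 1 μM, with no overlap. The call on FGA was lost in 5 of the 6 fits that left out a library, with adjusted p up to 0.0976 without FUCO-1 replicate 1. C3 had a log2 fold change of 0.03 (adjusted p = 0.901, SE 0.08).

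At 2 μM 19 members fell and 2 rose, against 9.71% and 10.8% of all tested genes. FGB, FGG and KNG1 had the largest falls, and FGA followed after C6. FGB fell to 39.4% of the Model (log2 fold change −1.34, adjusted p = 1.48e-08, SE 0.11), FGG to 49.6% (−1.01, adjusted p = 3.39e-06, SE 0.12) and FGA to 54.6% (−0.87, adjusted p = 6.56e-06, SE 0.11). KNG1 fell by 0.99 on the log2 scale (adjusted p = 3.08e-07, SE 0.10), with 37.6, 33.3 and 40.5 CPM. FGB and FGG were the 2 members that also passed a fold change of 2, a limit that 1.6% of all genes passed in either direction.

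Other coagulation genes that fell at 2 μM were F10 (factor X, −0.37), F11 (factor XI, −0.47), PROS1 (−0.32), PROZ (protein Z, −0.47), SERPIND1 (−0.46) and SERPINF2 (α2-antiplasmin, the inhibitor of plasmin, −0.56). Prothrombin (F2) had a log2 fold change of 0.24 and protein C (PROC) of 0.04, and neither passed. Among complement genes, C6 had the largest fall. It was at 20.8, 21.7 and 26.1 CPM in the Model and at 10.3, 11.7 and 13.7 CPM at 2 μM, with no overlap (log2 fold change −0.95, adjusted p = 2.28e-05, SE 0.13). C1R (−0.66), CFI (factor I, which inactivates C3b, −0.64), C8B (−0.60), MASP2 (−0.49) and C5 (−0.28) also fell. C8G rose by 0.50 and C4A by 0.64, the latter with the same doubt about C4B. C3 was at 3278, 3108 and 2814 CPM, overlapping the Model, with a log2 fold change of −0.15 (adjusted p = 0.206, SE 0.08). Of the 4 inhibitors and carriers, SERPING1 (C1 inhibitor, which holds back both C1 and the contact phase) fell by 0.74 (adjusted p = 0.000263, SE 0.13). SERPINA1 (−0.53) and A2M (−0.27) fell as well, and AHSG had −0.21 and did not pass. The summed level of 9 hepatocyte markers was 49920 to 50450 CPM in the Model and 34410 to 38130 CPM at this dose. Of these markers, ALB had −0.51 and TTR −0.88, and the others are not given singly for this dose.

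Without FUCO-2 replicate 2 the calls on F10, PROZ, PROS1 and MASP2 were lost, with adjusted p up to 0.0833. Without FUCO-2 replicate 1 those on C4A and C5 were lost, and that on C5 also without FUCO-2 replicate 3. Those on PROS1, C4A, C5, MASP2 and A2M were lost without 1 or more of the Model libraries too, with adjusted p up to 0.175 for C5 without Model replicate 2. The other 14 calls held under every alternative.

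Doses were compared directly between 2 and 1 μM. Here 10 members were lower at 2 μM and 0 higher, against 2.23% and 4.07% of all genes. They were FGA, FGB, FGG, PROZ, SERPIND1 and KNG1 in the coagulation set, C6, C8B and CFI in complement, and SERPINA1. C8B had a log2 difference of −0.59 (adjusted p = 0.0262, SE 0.16), FGB of −0.57 (adjusted p = 0.0037, SE 0.11) and C6 of −0.54 (adjusted p = 0.0182, SE 0.14). It was −0.52 for CFI (adjusted p = 0.00845, SE 0.12), −0.49 for PROZ (adjusted p = 0.0202, SE 0.13) and −0.48 for KNG1 (adjusted p = 0.00629, SE 0.10). FGG had −0.42 (adjusted p = 0.0425, SE 0.12) and FGA −0.40 (adjusted p = 0.0327, SE 0.11). The difference in C3 was −0.19 (adjusted p = 0.212). The count fell to 2 (FGB and SERPIND1) without FUCO-2 replicate 2 and to 3 (FGB, KNG1 and CFI) without FUCO-1 replicate 3, so that FGB alone was called in all fits. Group means fell at each step from the Model through 0.5, 1 and 2 μM in 8 of the 39 tested members, FGA, FGB, FGG, KNG1, C1R, C6, SERPINA1 and SERPING1, and rose at each step in C4B. This order of means was not tested, and how many of all tested genes share it was not counted.

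**Figure D2:**
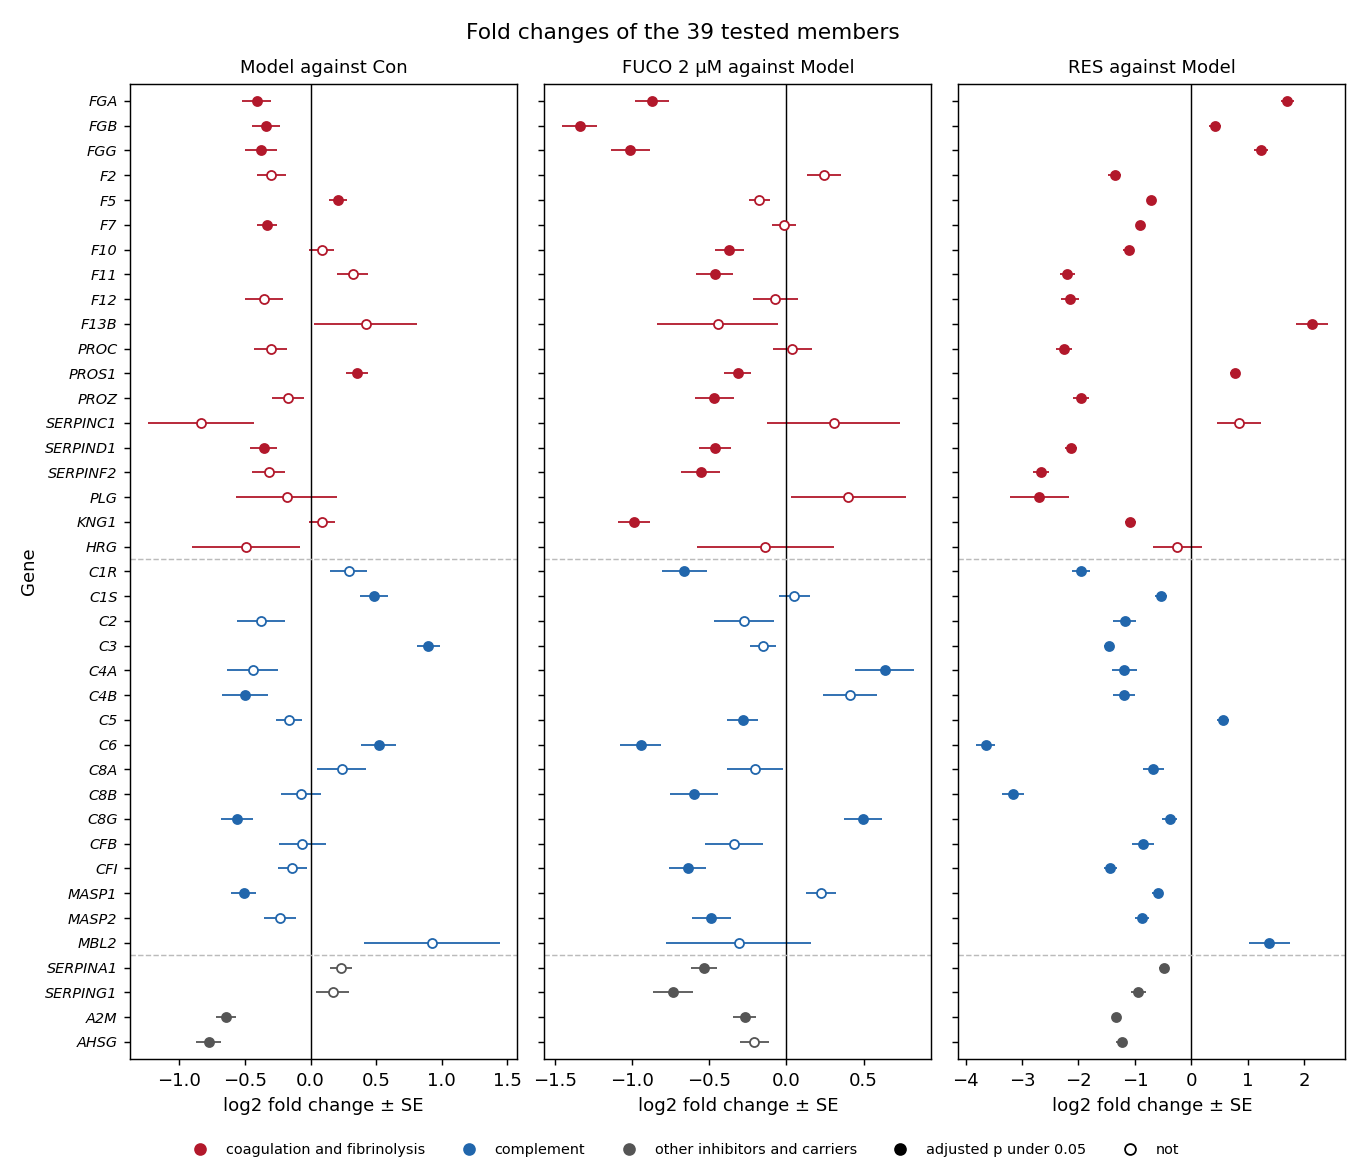
Log2 fold changes (± SE, edgeR) of the 39 tested members for Model against Con, 2 μM FUCO against Model and RES against Model, with the horizontal scale set for each panel. Filled points passed an adjusted p under 0.05, and colours mark coagulation, complement and the 4 other genes. With RES 30 members lie to the left of 0 and 7 to the right among the filled points, and the 3 fibrinogen genes change sides between the FUCO and RES panels.

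RES changed nearly the whole set. Against the Model 7 members rose and 30 fell, where 24.4% and 25.1% of all tested genes were called higher and lower. At a fold change of more than 2 the counts were 4 higher and 20 lower, a limit passed by 9.91% of all genes in either direction. SERPINC1 (log2 fold change 0.85, adjusted p = 0.0736) and HRG (−0.25, adjusted p = 0.662) did not pass. In the coagulation set 5 rose and 12 fell.

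The fibrinogen genes rose with RES, unequally. FGA was at 779, 665 and 584 CPM, against 206 to 210 CPM in the Model, a 3.24-fold level (log2 fold change 1.70, adjusted p = 6.74e-12, SE 0.11). FGG was at 784, 727 and 609 CPM against 296 to 306 CPM, a 2.36-fold level (1.24, adjusted p = 9.21e-09, SE 0.12). FGB was at 143, 147 and 159 CPM against 110 to 112 CPM, a 1.34-fold level (0.42, adjusted p = 0.00224, SE 0.11). All RES libraries were above all Model libraries for the 3 genes. F13B, the carrier subunit of the fibrin-crosslinking factor XIII, rose from 0.487 to 0.723 CPM up to 2.10 to 3.34 CPM (log2 fold change 2.14), and PROS1 rose from 87.9 to 98.9 CPM up to 152 to 172 CPM (0.77).

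Most proteases and inhibitors of clotting went the other way. SERPINF2 was at 320, 304 and 306 CPM in the Model and at 55.97, 49.99 and 40.3 CPM with RES, 15.7% of the Model (log2 fold change −2.67, adjusted p = 5.81e-14, SE 0.14). PLG (plasminogen, the precursor of plasmin that SERPINF2 inhibits) fell by 2.69 on the log2 scale (adjusted p = 0.000158, SE 0.53), from 2.33 to 3.84 CPM down to 0.282 to 0.559 CPM. PROC, which inactivates factors V and VIII, was at 87.1, 77.3 and 81.7 CPM in the Model and at 17.3, 18.3 and 15.8 CPM with RES (−2.26, adjusted p = 1.48e-12, SE 0.14). The groups of these genes were far apart in every library. Contact phase genes fell as well, F11 with a log2 fold change of −2.20 (adjusted p = 1.90e-12, SE 0.14), F12 (factor XII) with −2.15 and KNG1 with −1.08. So did SERPIND1 (−2.14), PROZ (−1.95), F2 (−1.36), F10 (−1.11), F7 (−0.91) and F5 (−0.71). The vitamin K-dependent group split, with F2, F7, F10, PROC and PROZ lower and PROS1 higher.

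In complement 14 of the 16 tested genes fell with RES and 2 rose. C6 had the largest fall of all tested members. It was at 1.57, 1.88 and 2.05 CPM with RES, 7.99% of its level in the Model (log2 fold change −3.65, adjusted p = 1.20e-14, SE 0.17). C8B fell by 3.16 (adjusted p = 2.43e-12, SE 0.20), from 15.8, 14.3 and 16.89 CPM to 2.22, 1.51 and 1.45 CPM. C3 was at 1126, 1190 and 1401 CPM with RES, below every Model and every Con library (against the Model −1.46, adjusted p = 8.34e-13, SE 0.09). In the early steps the log2 fold change was −1.96 for C1R, −0.55 for C1S, −1.18 for C2 and −1.19 for both C4A and C4B. It was −1.43 for CFI, −0.86 for CFB (factor B of the alternative pathway), −0.87 for MASP2, −0.60 for MASP1, −0.67 for C8A and −0.39 for C8G. C5, which starts the pore, rose from 198, 220 and 199.6 CPM to 297, 307 and 306 CPM (0.56, adjusted p = 5.57e-05, SE 0.10), and MBL2, the mannose-binding starter of the lectin pathway, rose at low levels, from 0.384 to 0.723 CPM up to 0.979 to 1.61 CPM (1.38). The 4 inhibitors and carriers all fell (A2M −1.33, AHSG −1.23, SERPING1 −0.94 and SERPINA1 −0.49). Of these 37 calls, 36 held under every alternative in which the gene was tested, and PLG, F13B and MBL2 were not tested with at least 10 counts in every library, where 34 were called. The call on C8G was lost without Model replicate 1 and without RES replicate 3 (adjusted p = 0.11). C2 and CFB share exon sequence, as do C1R and C1RL. C3 and CFI overlap exons of another annotated gene on the same strand, by 1357 and 1562 bases. C5, F11, F12, MASP2 and A2M are among those that overlap genes on the opposite strand. The counts of all these genes are less certain.

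Markers of the labelled cell moved with these falls. Albumin (ALB) was at 33600 to 34256 CPM in the Model and at 7407 to 7743 CPM with RES (log2 fold change −2.17), α-fetoprotein (AFP) changed by −4.72, and APOA1, TTR, TF and APOB were also lower. The keratins KRT8 and KRT18 did not pass. The summed level of the 9 hepatocyte markers was 49920 to 50450 CPM in the Model, 34410 to 38130 CPM at 2 μM FUCO and 14120 to 14310 CPM with RES. In bulk RNA of 1 cell line, fewer cells that express a gene and less of its RNA per cell cannot be told apart. The part of these markers in the falls was not tested. Of 14 markers of endothelial, leukocyte, stellate and bile duct cells, 7 were under 1 CPM in every library and CDH5, CD163, COL3A1 and ACTA2 were at 0 counts throughout.

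The 2 cascades can be set side by side by counts and medians. With RES the median log2 fold change against the Model was −1.08 over the 19 tested coagulation genes and −1.03 over the 16 tested complement genes, beside 0.00 over all tested genes. At 2 μM FUCO the medians were −0.37 and −0.28, and 0.01 over all genes. Here 10 of 19 coagulation genes were called lower and 0 higher, and 6 of 16 complement genes lower and 2 higher. Of all tested genes, 9.71% were called lower and 10.8% higher. At 1 μM the medians were −0.09 and −0.00, with 4 and 0 genes called, against 3.21% of all tested genes. Without the fibrinogen genes the coagulation median was −1.23 with RES and −0.25 at 2 μM.

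The share of all counts was taken mostly by a few genes. The 21 coagulation genes took 0.255% to 0.261% of counts in Con, 0.222% to 0.234% in the Model, 0.158% to 0.185% at 2 μM FUCO and 0.218% to 0.264% with RES. With RES the summed fibrinogen level was 1352 to 1706 CPM, against 613 to 629 CPM in the Model, so that the share of the set overlapped that of the Model although 12 of its genes fell. The 17 complement genes took 0.211% to 0.221% in Con, 0.361% to 0.387% in the Model and 0.164% to 0.194% with RES. Most of that was C3. Without C3 the other 16 genes took 0.043% to 0.0441% in Con, 0.0393% to 0.0414% in the Model and 0.0427% to 0.0436% with RES. C5 had the highest CPM of these and rose from 198 to 220 CPM in the Model to 297 to 307 CPM with RES. The share of total counts therefore did not fall, although 13 of the 15 tested genes in it were called lower. These shares are on another scale than the CPM and the calls, because they do not use the TMM factors. Those factors were 0.973 to 0.983 in the Model and 1.07 to 1.08 with RES, so a small rise in share need not be one in CPM.

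**Figure D3:**
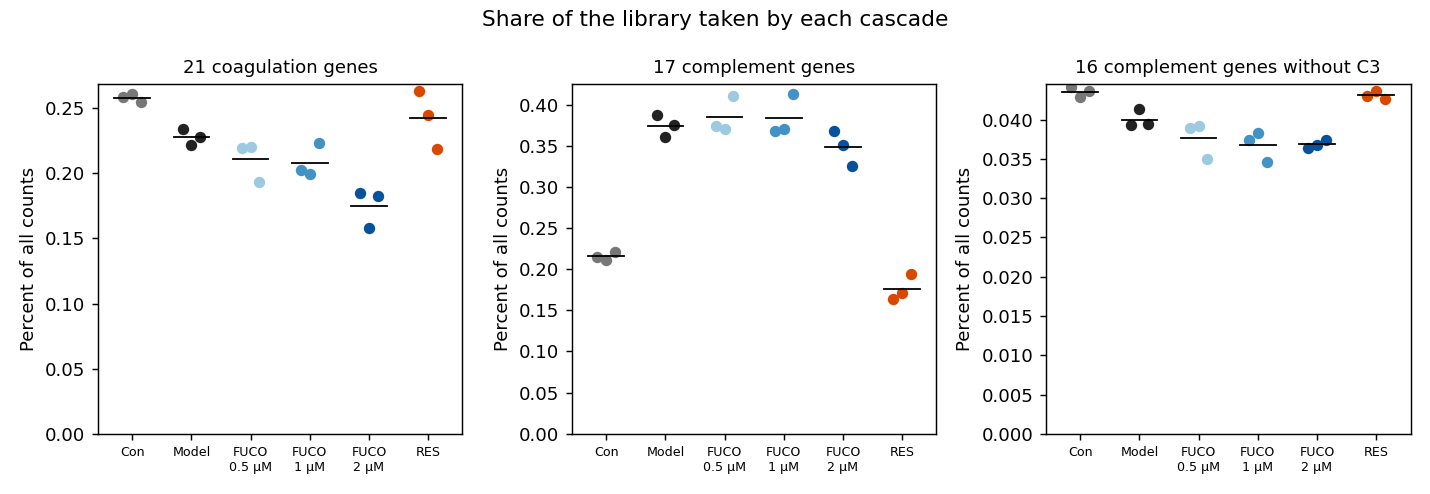
Percent of each library's counts that fell on the 21 coagulation genes, the 17 complement genes and the complement genes without C3, by group. Shares are of total counts, without TMM factors. Points are libraries and lines are means of 3. The coagulation share is lowest at 2 μM FUCO (0.158% to 0.185%), and the complement share is highest in the Model and the FUCO groups, whereas without C3 these groups lie below Con and RES.

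Ratios between genes whose products work together were compared as well, and none of these tests could pass at this sample number. The count ratio of FGB to FGA, which does not depend on library size, was 0.484 to 0.531 in Con and 0.533 to 0.537 in the Model. It was 0.447 to 0.525 at 0.5 μM, 0.428 to 0.441 at 1 μM, 0.344 to 0.431 at 2 μM and 0.184 to 0.272 with RES. No RES library overlapped another group. The log2 difference from the Model was −1.26 with RES and −0.48 at 2 μM, each with p = 0.1 in an exact two-sided permutation test, the smallest that 3 against 3 libraries can give. Over all 32 tests of 4 such ratios the adjusted p of these was 0.145, the lowest of any. The ratio of FGG to FGA moved less, by −0.14 at 2 μM and −0.45 with RES, and its ranges overlapped between Model and Con. The ratio of C8B to C8A, neighbours on chromosome 1 whose products form 1 protein with C8G, was 1.91 to 2.52 in the Model and 0.316 to 0.509 with RES (log2 difference −2.55, exact permutation p = 0.1). The ratio of C5 to C3 was 0.114 to 0.136 in Con, 0.0561 to 0.0676 in the Model and 0.218 to 0.264 with RES (log2 difference from the Model 2.03, exact permutation p = 0.1).

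**Figure D4:**
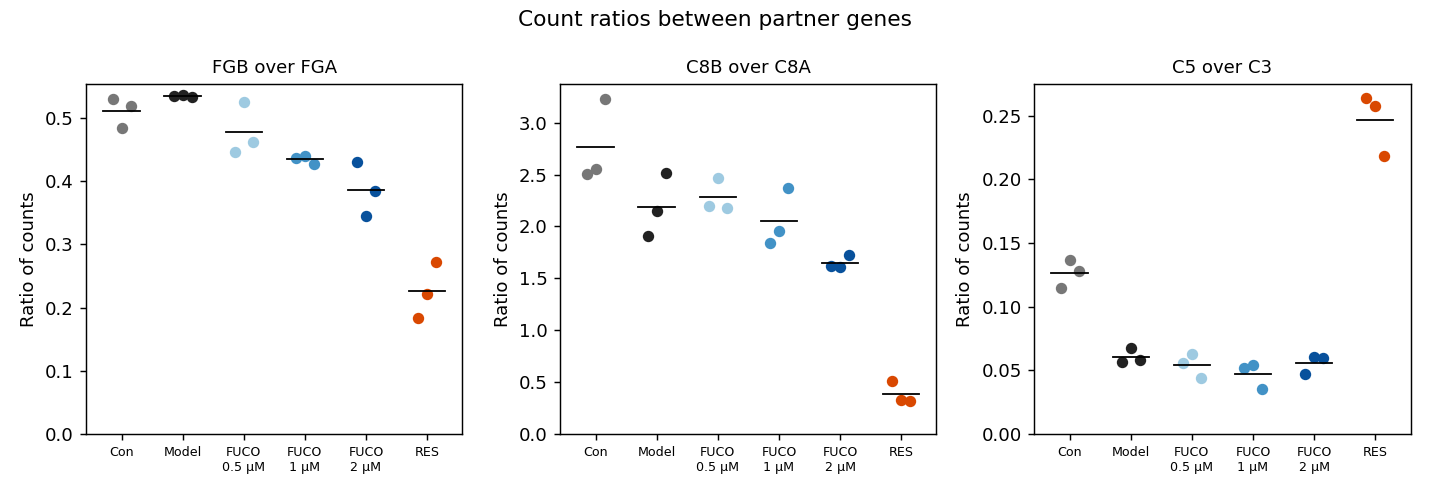
Ratio of counts of FGB over FGA, C8B over C8A and C5 over C3 in each library, by group. Points are libraries and lines are means of 3, on linear axes from 0. The RES libraries lie apart from the other groups in each panel, at 0.184 to 0.272, 0.316 to 0.509 and 0.218 to 0.264.

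Compared with Con, RES left 28 members lower and 6 higher, against 28.5% and 28.8% of all tested genes. FGA was 1.28 higher on the log2 scale (adjusted p = 5.52e-10, SE 0.11) and FGG 0.86 higher (adjusted p = 1.60e-06, SE 0.12), while FGB differed by 0.08 (adjusted p = 0.529, SE 0.11). F13B, PROS1, C5 and MBL2 were the other genes above Con. The log2 difference was −3.23 for C8B (adjusted p = 1.03e-12, SE 0.20), −3.13 for C6 (adjusted p = 1.75e-13, SE 0.17) and −2.98 for SERPINF2 (adjusted p = 4.90e-15, SE 0.14). PLG had −2.88 (adjusted p = 4.49e-05, SE 0.52), PROC −2.57 (adjusted p = 8.94e-14, SE 0.14) and F12 −2.50 (adjusted p = 2.19e-12, SE 0.16). The Con libraries were uneven for PLG, at 6.53, 1.91 and 1.62 CPM, and its difference ranged from −3.22 to −1.96 over the alternatives. C3, which had risen in the Model, had −0.56 here (adjusted p = 4.14e-06, SE 0.08). The call on SERPINA1 (−0.25) was lost without Con replicate 1 (adjusted p = 0.106).

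Against 2 μM FUCO, RES gave 7 members higher and 27 lower, where 22.5% and 26% of all genes were called. The log2 difference was −3.10 for PLG (adjusted p = 1.99e-05, SE 0.51), −2.699 for C6 (adjusted p = 1.05e-11, SE 0.18) and −2.56 for C8B (adjusted p = 3.28e-10, SE 0.21). PROC had −2.30 (adjusted p = 1.82e-12, SE 0.14) and C3 −1.31 (adjusted p = 8.87e-12, SE 0.09). FGA was higher by 2.57 (adjusted p = 2.03e-14, SE 0.12), FGG by 2.25 (adjusted p = 6.37e-13, SE 0.13) and FGB by 1.77 (adjusted p = 6.43e-12, SE 0.11). KNG1, SERPINA1 and SERPING1, which fell with both compounds, did not pass here. The calls on C8A, CFB and MASP2 were lost when single FUCO-2 or RES libraries were left out, with adjusted p up to 0.131, 0.207 and 0.082. That on C8A was also lost with upper quartile factors and in DESeq2, and that on CFB in DESeq2 and in the fit of 2 groups.

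Other genes of the same pathways were described from a list of 28 for coagulation and 28 for complement, of which 22 and 12 were tested. In the Model, 1 of the coagulation genes was higher than in Con and 4 were lower, against 8.43% and 9.12% of all tested genes. F2RL1, a protease-activated receptor, was higher by 1.02 on the log2 scale (adjusted p = 2.33e-07), and the protease inhibitors SERPINE2 (protease nexin 1) and SERPINA5 (protein C inhibitor, −0.36) were lower. In complement the membrane regulator CD59 was higher (0.33) and CD46 lower (−0.40). At 1 μM 0 of the listed genes were called, against 0.893% of all tested genes higher and 2.32% lower. An unadjusted p under 0.05 in edgeR was reached by 8 coagulation genes and 1 complement gene, beside 2375 of all 14557 tested genes.

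At 2 μM FUCO 2 coagulation genes of this list rose and 6 fell, against 10.8% and 9.71% of all tested genes. SERPINE2 rose by 0.76. VTN (vitronectin, an adhesion protein of plasma) had −0.64 and SERPINA5 −0.48. In complement CD55, which breaks up C3 convertases, rose by 0.69, and C7, C4BPA (−0.59), C4BPB and CLU fell.

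With RES 4 coagulation genes of the list rose and 10 fell, and 2 complement genes rose and 6 fell. Of all tested genes, 24.4% were called higher and 25.1% lower. The log2 fold change was −2.33 for APOH (β2-glycoprotein I), −1.88 for CPB2 (the carboxypeptidase that slows fibrin breakdown) and −1.86 for VTN. PLAU (urokinase, an activator of plasminogen) fell from 0.612 to 1.04 CPM in the Model to at most 0.161 CPM. MCFD2 and LMAN1, which together carry factors V and VIII out of the endoplasmic reticulum, rose by 0.46 and 0.42. C4BPA, the plasma regulator of C4b, was at 112, 90.7 and 111 CPM in the Model and at 16.8, 19.7 and 20.2 CPM with RES (log2 fold change −2.47, adjusted p = 1.95e-15). C7, the pore component after C6, fell from 0.92 to 1.15 CPM to 0, 2 and 0 counts in the RES libraries, and CFHR5 fell to 1 count in each. CD55 rose by 1.30 and C5AR1, a receptor of C5a, by 1.52.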

How the data were processed

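Hep3B RNA-seq libraries, 3 per group, were assigned to 6 groups by title. The deposited values are raw counts per gene symbol. Per the methods and the labels, the authors enriched polyadenylated RNA, trimmed reads with fastp, aligned them with STAR to GRCh38.p14 and counted them with featureCounts, without normalization. The strand setting and the handling of reads with several matches are not given in the sources used here. Per the methods, all libraries came from a single sequencing run. An Illumina NovaSeq and a DNBSEQ platform are both named there, without saying which libraries ran on which.

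All 18 libraries were fitted together with edgeR 4.0.16 (R 4.3.3; filterByExpr with minimum count 10 and minimum total 15, TMM factors, quasi-likelihood F test, 1 term per group, prior count 0.125), and Benjamini-Hochberg adjustment ran over all 14557 genes tested, which hold 99.9% of counts. The standard error is the absolute log2 fold change divided by the square root of F. DESeq2 1.42.0, the tool of the study's methods, was an alternative. The script was tested on simulated counts. Per-kilobase levels used canonical transcript lengths of GENCODE v44, and exact permutation tests used SciPy. The members and lists were chosen with earlier results of these data known. Full statistics were given, per comparison, for up to 6 called members averaging 1 CPM or more, taken by the size of the change, and for the fibrinogen genes and C3. Of the other pathway genes, up to 4 called per comparison were named with the same order, and some that work with a member were added after their values were seen. One gene of that list is not reported here. Alternatives were other normalization factors, DESeq2, fits of 2 groups, no filter, at least 10 counts in every library, a replicate block and leaving out each library. Replicate numbers were checked for pairing: deviations of same-numbered libraries correlated at −0.31 to 0.28 over 45 pairs of libraries (median 0.03), so the numbers were not used to pair libraries. No molecular identifiers were counted, and the limit of 3 counts for a gene at 0 therefore reflects counting error alone.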

Additional observations from a re-analysis of the deposited data

Results flagged for a closer look

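For 7 members the effect against the Model had opposite signs with RES and with 2 μM FUCO, each past an adjusted p under 0.05. A difference between the compounds that passed edgeR's test was part of the same rule, so it is not further support. Both effects share the Model libraries, and the genes that meet the rule were not counted over the whole table. The doses are not matched, since the RES dose is not stated for these libraries. The 3 fibrinogen genes fell with FUCO and rose with RES. The log2 difference, RES minus FUCO, was 2.57 for FGA, 1.77 for FGB and 2.25 for FGG. PROS1 and C5 did the same, with differences of 1.09 and 0.84. C4A and C8G rose with FUCO and fell with RES, with differences of −1.82 and −0.88. The calls on PROS1, C4A and C5 with FUCO and that on C8G with RES were lost in some fits that left out a library, with the largest adjusted p at 0.0617, 0.0805, 0.175 and 0.11. C4A shares reads with C4B.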

How the results depend on the processing

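Every alternative was run, and no call on a member changed its direction. All calls held for 8 of 15 members in Model against Con, 3 of 4 at 1 μM, 14 of 21 at 2 μM, 36 of 37 with RES against the Model, 33 of 34 against Con, 1 of 10 between 2 and 1 μM and 31 of 34 between RES and 2 μM. In the 3 comparisons with RES, PLG, F13B and MBL2 were not tested with at least 10 counts in every library, which left 34, 31 and 31 calls. Changes of scaling moved the median of all genes by at most 0.0326. At 0.5 μM, where 0 members were called, DESeq2 called 1 (FGB), the fit of 2 groups 2 (FGB and SERPINF2) and no filter 3 (FGB, FGG and SERPINF2). Fits without 1 library called 0 to 2. At 1 μM the fit of 2 groups called 10 and no filter 8, against 4. Between 2 and 1 μM, fits without 1 library called 2 to 10.

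Medians of log2 fold changes moved as follows. Complement in Model against Con was −0.14 with 2 groups (−0.138), −0.138 with at least 10 counts in every library, and −0.14 to −0.10 without 1 library. Coagulation there ranged from −0.34 to −0.10. At 1 μM the ranges were −0.15 to −0.021 for coagulation and −0.048 to 0.066 for complement. For RES against the Model coagulation ranged from −1.11 to −1.03, and complement was −1.19 with at least 10 counts. For RES against Con coagulation was −0.99 with upper quartile factors, −1.24 with at least 10 counts and −1.09 to −0.97 without 1 library. Between RES and 2 μM it was −0.71, −0.90 and −0.85 to −0.62. The uncalled value of C3 ranged, without 1 library, between −0.031 and 0.053 in the 0.5 μM comparison, between −0.038 and 0.073 in that of 1 μM, and the value of FGB in RES against Con between −0.010 and 0.13.

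The replicate numbers did not pair the libraries (11 of 45 same-numbered pairs of libraries correlated above 0.1). With a replicate block 17 members were called in Model against Con, 0, 5 and 22 at 0.5, 1 and 2 μM, and 37 with RES. Depth limits what can be said of F9, C9 and KLKB1, and with 3 libraries a group the exact permutation tests of ratios cannot go below p = 0.1.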

Other observations

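Genes of liver transcription factors and of interleukin 6 signalling were read from a list of 16, all of which were tested. In the Model 1 was higher than in Con and 5 were lower, at 2 μM FUCO 2 rose and 3 fell, and with RES 4 rose and 9 fell. Of all tested genes, 8.43% were called higher and 9.12% lower in the Model, 10.8% and 9.71% at 2 μM, and 24.4% and 25.1% with RES. CEBPD, a C/EBP factor of the acute phase, was at 49.5, 24.5 and 26.9 CPM in the Con libraries and at 96.9, 89.6 and 86.9 CPM in the Model (log2 fold change 1.44, edgeR adjusted p = 1.22e-06). IL6R, the receptor of interleukin 6, was at 2.69, 4.06 and 4.01 CPM in the Model, at 6.45, 8.25 and 6.94 CPM at 2 μM and at 20.6, 18.6 and 12.03 CPM with RES. It rose by 1.01 at 2 μM (adjusted p = 0.00124) and by 2.25 with RES (adjusted p = 6.93e-10). CEBPB also rose in both, by 0.54 and 0.86. With RES NR1H4, the bile acid receptor FXR, had a log2 fold change of −1.96 and CEBPA of −1.08, while THRB, the gene of the receptor that Resmetirom binds, was at 35.9 ± 3.26 CPM in the Model and 41.5 ± 4.15 CPM with RES and did not pass (adjusted p = 0.0639).

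Some markers of other cell types were measurable and moved between groups. LYZ (lysozyme) ranged from 2.86 to 3.64 CPM in Con libraries, 12.4 to 17.97 CPM in the Model and 5.65 to 6.62 CPM with RES. PDGFRB was at 10.7 to 14.2 CPM in the Model and 0.915 to 1.35 CPM with RES. CD14 went the other way, from 3.50 to 3.73 CPM in the Model to 10.8 to 12.55 CPM with RES. Of the bile duct markers, KRT19 was at 237 to 250.1 CPM in the Model and 91.9 to 118 CPM with RES, and EPCAM at 530.0 to 573 CPM and 544 to 569 CPM. CD163 and COL3A1 were at 0 counts in all libraries and PTPRC at 0 to 2.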
